A study of Danio rerio with 24 samples.

Results

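In GFP+ cells sorted from zebrafish larvae, 248 of 31087 genes were at about their mock level 1 h after neomycin and higher at both 3 h and 5 h. They were chosen by a rule on the deposited FPKM (sequenced fragments per transcript length and library size) of the GFP+ libraries. With 1 added to each mean of 3 libraries, the ratio to mock was between 0.8 and 1.25 at 1 h and at least 1.6 at 3 h and at 5 h. The mean at 5 h was at least 5 FPKM, and the GFP+ mock mean was at least 0.25 of the GFP- mock mean. Of 254 genes that met these limits, 6 belong to a set of 12 IDs that are not analysed here. A gene symbol was available for 196 members, of which 16 have clone-like symbols, and 52 are known by their Ensembl ID alone. The names table gives many zebrafish genes the capital-letter symbol of the mammalian ortholog.

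All groups are larvae of the transgenic line Tg(sqET20) at 5 days post fertilization, grown from paired matings and selected as GFP-positive under a fluorescence microscope. Per the labels, neomycin was given at 300 µM for 30 min, and larvae then recovered for 1 h, 3 h or 5 h, while mock larvae were collected at 1 h. About 200 larvae were pooled and dissociated with trypsin for each collection, and RNA came from about 30000 living GFP+ or GFP- cells. Each of the 8 groups (GFP+ and GFP-, each as mock and at 3 times after neomycin) has 3 libraries of polyadenylated RNA, 24 in all. The labels do not say whether the libraries of a group came from separate clutches, so p-values measure the spread between these libraries. In the enhancer trap line Tg(sqET20), GFP is seen in lateral line cells and in other tissues. There is no mock group at 3 h or 5 h.

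The lateral line senses water flow with hair cells, which neomycin kills, and the supporting cells around them divide and replace the lost hair cells within days. A cell that prepares to divide has to make more protein and to move more cargo into its nucleus. Aminoacyl-tRNA synthetases charge tRNAs with amino acids, nucleoporins and importins form and use the nuclear pore, the proteasome degrades proteins tagged with ubiquitin, and the endoplasmic reticulum folds and glycosylates secreted proteins.

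The 3 h and 5 h libraries of both populations carry another experiment date (April) than the mock and 1 h libraries (March of the same year). Late sampling and date therefore coincide, and their parts in a late rise cannot be told apart. The libraries summed to between 1147540 and 1601860 FPKM in GFP+ cells and to between 1248480 and 1521670 in GFP- cells, and total counts per library are not known. Markers of the lateral line and its supporting cells summed to between 6540 and 8263 FPKM in GFP+ mock libraries and to between 771 and 830 in GFP- mock libraries (31 IDs). Epidermis markers (34 IDs) summed to between 14483 and 23893 in GFP+ mock and between 1524 and 2619 in GFP- mock. The mean sums in GFP+ and GFP- mock were 1429 and 1178 for ionocytes, and 766 and 292 for vessel, cartilage and fibroblasts. Markers higher in GFP+ mock were therefore not those of the lateral line alone. Hair cell markers (30 IDs) summed to between 2793 and 3667 in GFP+ mock libraries and between 1360 and 2198 in GFP+ libraries of 3 h. In GFP+ cells the lateral line and supporting cell sum was between 6791 and 7176 at 1 h, between 4193 and 4663 at 3 h and between 4711 and 6038 at 5 h, so that every late library lay below every early one. The part of this shift in the members' late rise was not tested. Markers of blood, neurons and retina (63 IDs) put the GFP- share of the GFP+ libraries between 2.53% and 3.53% in mock, between 1.96% and 3.99% at 1 h, between 4.16% and 6.34% at 3 h and between 2.76% and 5.92% at 5 h. With this share subtracted, 228 genes met the rule and 224 of them were members. The subtraction used the mean GFP- profile of each group, so it cannot check RNA carried over from a single cell type.

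Of the 12 lists of cell type markers, that of the exocrine pancreas, which makes digestive enzymes, had the largest fold between GFP+ libraries of one group (9.89 in mock, against at most 2.67 for the other lists in any group). Over its 25 IDs, chosen after the data were seen, the GFP+ sums were 1353, 137 and 172 FPKM in mock, 1034, 425 and 373 at 1 h, 2752, 464 and 704 at 3 h, and 1187, 1981 and 254 at 5 h. In mock, at 1 h and at 3 h the library numbered 1 stood above its group, and at 5 h those numbered 1 and 2 did. Without the GFP+ libraries numbered 1, 218 genes met the rule, of which 143 were members and 0 were exocrine pancreas genes. Leaving out the GFP+ mock library numbered 1 alone kept 163 members, the fewest of any single library left out, and 85 members met the rule whichever library was left out.

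**Figure D1:**
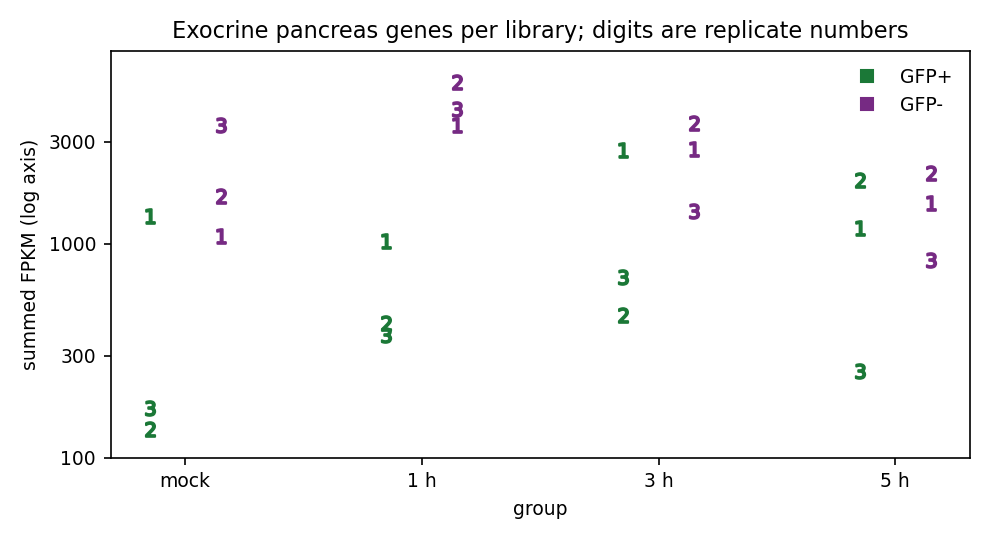
Summed FPKM (log axis) of 25 exocrine pancreas genes in each library, by group. Digits are replicate numbers, green for GFP+ and purple for GFP- libraries. The GFP+ libraries range from 137 to 2752, and the one numbered 1 is highest in its group in mock, at 1 h and at 3 h.

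The median member had a GFP+ mean of 10.5 FPKM in mock, 10.9 at 1 h, 21.95 at 3 h and 20.6 at 5 h. The median ratio to mock was 1.04 at 1 h, 1.97 at 3 h and 1.83 at 5 h, and over all 21860 genes tested it was 0.957, 1.08 and 1.07. These ratios chose the members and carry no test. The 3 h mean exceeded the 5 h mean in 162 members and was below it in 86. Both late ratios reached 2 in 61 members. In 186 members all 6 late GFP+ libraries were above all 6 mock and 1 h libraries, against 8.65% of the genes tested, a share shown for scale since the same libraries chose the members. In 0 members the late libraries were all below the early ones (1.41% of the genes tested). In the other 62 members at least one late library lay at or below an early one. In bulk samples a gene's level per cell and the share of cells that express it cannot be told apart.

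The limits cut through a continuous range. At 1 h, SNRNP200 (ratio 1.249) and SNRNP40 (1.244) were just inside and letmd1 (1.25003) and VARS1 (1.25024) just outside the upper limit, and PGM3 (0.802) and hcfc1a (0.806) were just inside and PLCD3 (0.79996) just outside the lower one. Another 499 genes missed the rule by the upper limit at 1 h alone. At 3 h, GDNF (1.601) and PSMC2 (1.606) were just inside and KCTD15 (1.599) and PSMD14 (1.596) just outside. At 5 h, ITGB6 and GPR155 (both 1.601) were just inside. Of the GFP+ to GFP- limit, one CEL gene (0.252) and PAPSS1 (0.254) were just inside, and ela3l (0.249) and RCC2 (0.248) just outside.

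Scaling mattered for who is a member. The median log2 change of all genes tested was 0.11 at 3 h and 0.10 at 5 h in GFP+ cells as deposited, and 0.00 and -0.01 after median-of-ratios scaling of the libraries. The GFP+ libraries of 3 h summed to between 1147540 and 1212540 FPKM and those of mock to between 1299960 and 1601860. Under that scaling 116 genes met the rule, of which 105 were members. All 248 members kept ratios above 1 under it, with a lowest ratio of 1.42 at both late times and medians of 1.76 at 3 h and 1.63 at 5 h. The members were chosen at ratios of at least 1.6, and this scaling divides each library by a single factor. Ratios above 1 therefore follow from the choice and carry no test.

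**Figure D2:**
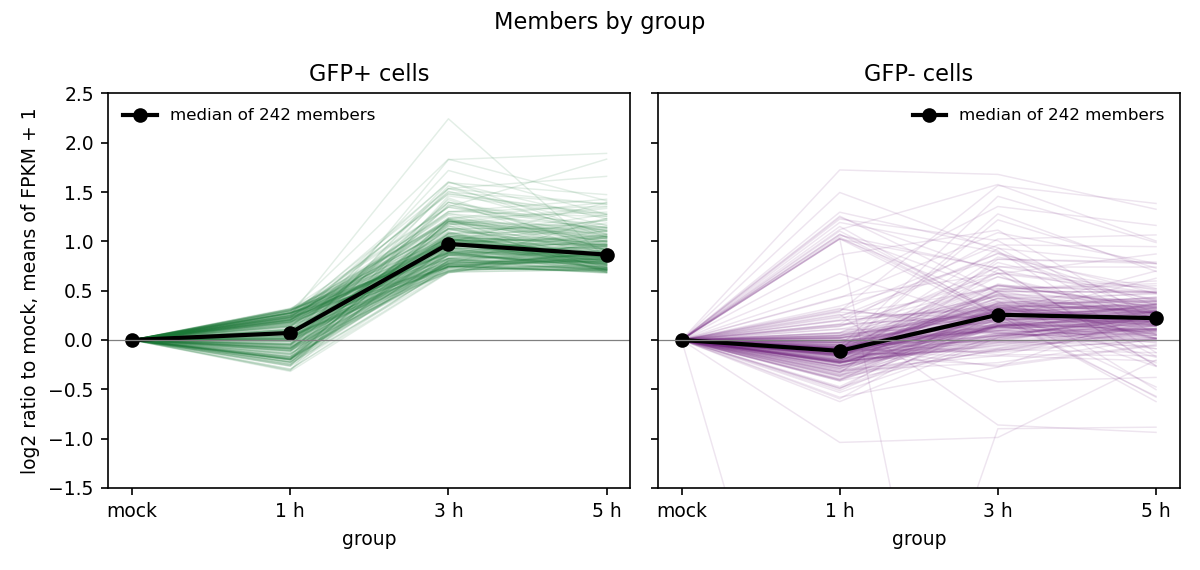
Each thin line is a member, drawn as the log2 ratio of its group mean to mock (1 added to both) in GFP+ cells (left) and GFP- cells (right). Black points are medians. The 6 members listed at 0 in all GFP+ mock libraries are left out, and 2 of the 242 lines leave the axis. GFP+ lines stay near 0 at 1 h and lie high at 3 h and 5 h, as the rule requires, and GFP- lines dip slightly at 1 h and lie above 0 at 3 h and 5 h for most members.

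GFP- cells give the comparison that the rule did not use, apart from their mock libraries, which set an upper limit on the GFP- mock level. All 248 members passed the filter on low values (1 FPKM in at least 3 of 24 libraries), and 240 passed it on GFP- libraries alone. Many members were higher late in GFP- cells too, by less than in GFP+ cells. With 3 h and 5 h set against mock and 1 h, 106 members rose and 1 fell in GFP- cells by limma with Benjamini-Hochberg adjustment over all genes tested (adjusted p under 0.05). These rises were 42.7% of the members, against 6.03% of the genes tested that rose and 6.08% that fell. The shares were not matched for level, and low genes are less precise. The median GFP- mock mean was 17.3 FPKM over members and 6.88 over all genes tested. The median log2 change was 0.30 over members and -0.01 over all genes tested. In 66 members (26.6%) all 6 late GFP- libraries were above all 6 early ones, against 2.49% of the genes tested, and 60 of the 66 were separated in GFP+ cells as well. In 0 members the late GFP- libraries were all below the early ones (2.39%).

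With 1 h alone as the early group, so that no library the rule used enters the contrast, 115 members rose and 1 fell (46.4% higher, against 6.91% and 5.95% of the genes tested). A dip of members at 1 h in GFP- cells enlarges this contrast. Their median log2 change from mock to 1 h was -0.11, against -0.04 over all genes tested. Leaving out the 13 exocrine pancreas members kept the 106 rises among 235 members. Among the 105 members that held under median-of-ratios scaling 46 (43.8%) rose late against early. Among the 85 that held whichever library was left out 57 (67.1%) did, against 6.03% of the genes tested. The median log2 change of these 85 was 0.33, against 0.30 over all members. The fit takes a single spread per gene over all 24 libraries, GFP+ included. Choosing the 85 by steady GFP+ values therefore favours calls, so their larger share does not show a larger rise. The GFP- libraries share the date split with the GFP+ ones, and the part of the date in these rises was not tested.

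Time by time, 31 members rose in GFP- cells at 3 h (12.5%, against 2.31% of the genes tested) and 0 fell (2.11%; 1 at an unadjusted p under 0.05). At 5 h 12 rose (4.84%, against 0.48%) and 0 fell (0.563%; 1 at an unadjusted p under 0.05), and 11 of the 12 were among the 31. The 3 h count rested on few libraries: it was 7 without the 3 h library numbered 2 or the one numbered 3 and 16 without the one numbered 1, and it was 17, 8 and 20 without mock libraries 1, 2 and 3. The 5 h count was between 4 and 7 without mock library 1 or 2 or any 5 h library. The late against early count ranged from 86 to 119 over the 24 libraries left out in turn. Between 3 h and 5 h, 0 members differed in either direction by limma, and 0 of the genes tested did (8 members higher and 5 lower at an unadjusted p under 0.05).

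At 1 h, 0 members rose in GFP- cells (1.88% of the genes tested; 3 members at an unadjusted p under 0.05) and 3 fell (0.823%; 44 members at an unadjusted p under 0.05). The 1 h mean was below the mock mean in 177 members, with a median log2 change of -0.11 over members and -0.04 over all genes tested, and the 1 h libraries are part of the early group in the late contrasts above. The 3 were TMEM33, a membrane protein of the endoplasmic reticulum (log2 change -0.50 ± 0.10 SE, limma adjusted p = 0.00942), DHX9, an RNA helicase (-0.48 ± 0.12, adjusted p = 0.0302), and tipin, which guards the replication fork (-0.59 ± 0.15, adjusted p = 0.0384). TMEM33 was at 24.3, 25.0 and 26.7 FPKM in GFP- mock, 15.3, 18.5 and 19.2 at 1 h, 29.5, 37.6 and 32.9 at 3 h and 31.2, 29.8 and 33.2 at 5 h. Its 1 h libraries were below all others, and its late libraries above all mock ones. Each of the 3 calls was lost without at least one library of the contrast.

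**Figure D3:**
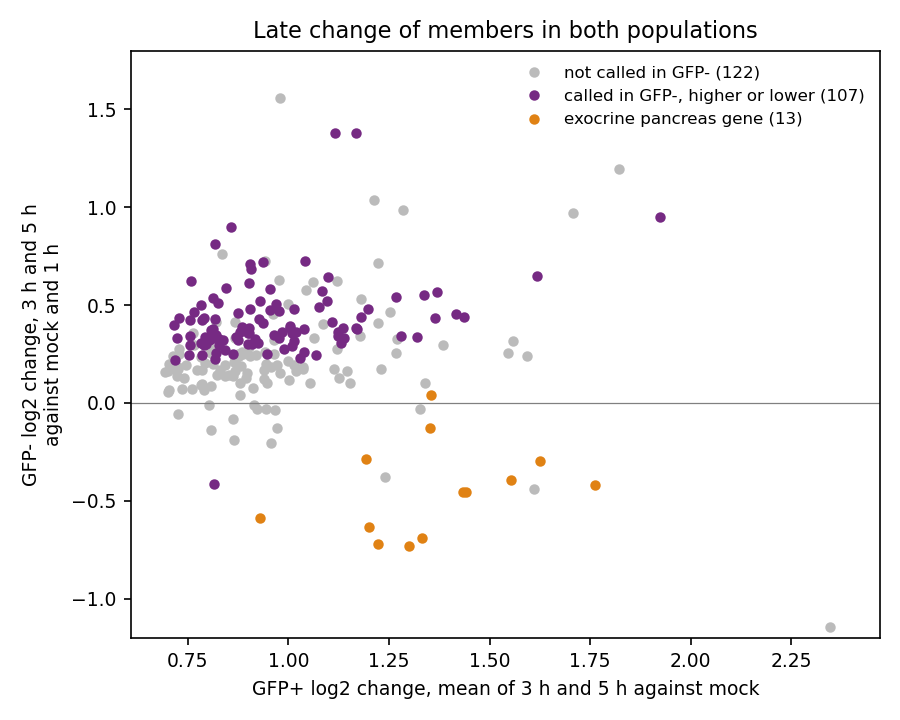
Each point is a member with any GFP+ mock signal (242; 1 lies outside the axis). The x axis is the GFP+ log2 change, the mean of 3 h and 5 h against mock, and the y axis the GFP- log2 change of 3 h and 5 h against mock and 1 h. Purple marks the 107 members called by limma in GFP- cells, orange the 13 exocrine pancreas genes, of which 12 lie below 0 on the y axis.

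Of all genes tested 1.13% were members. Of the members, 49 are on 41 gene lists drawn up for this tissue and treatment, spread over 17 of the lists. Under median-of-ratios scaling, 105 of the 248 members still met the rule. By list these were 4 of 9 for nuclear transport, 5 of 6 for tRNA and amino acids and 3 of 10 for the proteasome. They were 2 of 4 for splicing, 1 of 2 for S phase and 0 of 3 for the secretory list. RB1, dlb and CTTN did not meet it. The nuclear pore and nuclear transport list held 9 members of 35 tested genes. They were ipo4, an importin, and the nucleoporins NUP155, NUP133, NUP210, NUP93, NUP188, NUP160, NUP107 and NUP205, most of them in the scaffold of the pore. In GFP+ cells ipo4 was at 4.40, 4.89 and 5.50 FPKM in mock, 4.71, 6.79 and 7.29 at 1 h, 20.0, 19.7 and 20.7 at 3 h and 13.4, 12.5 and 18.5 at 5 h. Every late library was above every early one, and the 3 h libraries were the highest of all. NUP155 was at 6.94, 8.22 and 6.92 FPKM in mock, 8.96, 8.28 and 9.60 at 1 h, 17.7, 18.3 and 19.4 at 3 h and 17.5, 16.1 and 18.5 at 5 h. All 9 members were separated in this way, with ratios of 1.70 to 3.57 at 3 h and 1.74 to 2.66 at 5 h. Of all members 75% were so separated, and of the genes tested 8.65%. The same GFP+ libraries chose the members, so their separation carries no test, here and in the lists below.

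All 9 also rose in GFP- cells late against early by limma, by 0.24 to 0.65 on the log2 scale. For ipo4 the change was 0.65 ± 0.10 (adjusted p = 0.000382), for NUP155 0.44 ± 0.06 (adjusted p = 0.000221) and for NUP210, a membrane nucleoporin, 0.52 ± 0.08 (adjusted p = 0.000382). NUP210 was at 16.1, 14.6 and 15.6 FPKM in GFP- mock, 18.6, 13.0 and 12.9 at 1 h, 20.1, 23.4 and 22.7 at 3 h and 22.5, 21.3 and 22.4 at 5 h, and its late libraries all lay above its early ones. Of the 26 other genes of the list, 20 rose and 0 fell in GFP+ cells at 3 h (against 19.9% and 8.15% of the genes tested), 19 rose and 0 fell at 5 h (15.1% and 4.09%), and 14 rose and 4 fell at 1 h (13.9% and 19.1%). In GFP- cells late against early, 13 of the 26 rose and 1 fell (against 6.03% and 6.08% of the genes tested). In this list and those below, members had to be near mock at 1 h, so leaving them out shifts the 1 h shares. The GFP+ median log2 change at 1 h was 0.24 over all 35 tested genes of this list and 0.47 over the 26.

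Genes that charge tRNAs or make amino acids supplied 6 members of 30 tested: the leucyl-tRNA synthetase genes lars1a and LARS1, IARS1 (isoleucyl), EPRS1 (glutamyl and prolyl), GARS1 (glycyl) and SHMT1, which interconverts serine and glycine. LARS1 was at 10.3, 9.98 and 9.90 FPKM in GFP+ mock, 10.8, 11.2 and 13.8 at 1 h, 29.2, 31.2 and 29.0 at 3 h and 23.0, 23.6 and 30.3 at 5 h. The late and early libraries did not overlap in any of the 6. The reads of lars1a and LARS1 could have been split between them if the genes are near copies, which was not tested. All 6 rose in GFP- cells late against early, against 6.03% of the genes tested. Their log2 changes were 0.30 to 0.57, and that of LARS1 was 0.57 ± 0.08 (limma adjusted p = 0.000284). In GFP- cells LARS1 was at 17.4, 14.7 and 17.6 FPKM in mock and 21.5, 26.8 and 23.0 at 3 h. Of the 24 other genes of the list, 14 rose and 1 fell in GFP+ cells at 3 h (19.9% and 8.15% of the genes tested). At 5 h 15 rose and 1 fell (15.1% and 4.09%), and at 1 h 15 rose and 1 fell (13.9% and 19.1%). VARS1, the valyl enzyme, is one of these 24 and missed membership by its 1 h ratio.

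The proteasome list held 10 members of 47 tested (21.3%), the most by number among the 41 lists, while the nuclear transport list held a larger share (25.7%). PSMD1, PSMD3, PSMD8 and PSMD12 are non-ATPase subunits of the regulatory particle that caps the proteasome, psmc1b, PSMC2, PSMC5 and PSMC6 belong to its ATPase ring, PSMB5 is a catalytic subunit of the core, and USP14 is a deubiquitinase bound to the cap. PSMD1 was at 25.7, 25.0 and 21.2 FPKM in GFP+ mock, 28.3, 26.2 and 28.9 at 1 h, 53.1, 67.3 and 61.2 at 3 h and 62.5, 68.2 and 67.9 at 5 h. All 10 were separated between late and early GFP+ libraries, with ratios of 1.61 to 2.46 at 3 h and 1.76 to 2.69 at 5 h, and each was higher at 5 h than at 3 h. Such separation was found in 75% of all members and 8.65% of the genes tested. Of the 37 other genes, 23 rose and 1 fell in GFP+ cells at 3 h (19.9% and 8.15% of the genes tested). At 5 h 27 rose and 0 fell (15.1% and 4.09%), and at 1 h 7 rose and 3 fell (13.9% and 19.1%).

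In GFP- cells 3 of the 10 proteasome members rose late against early by limma: PSMD1 (log2 change 0.43 ± 0.08, adjusted p = 0.00164), PSMD12 (0.29 ± 0.06, adjusted p = 0.00591) and USP14 (0.23 ± 0.07, adjusted p = 0.0482). At 3 h against mock, the log2 changes of the 10 ran from -0.12 to 0.35 and none passed the test. PSMB5, with a late change of 0.17 ± 0.05 and an adjusted p of 0.0502, was at 69.8, 70.3 and 72.6 FPKM in GFP- mock, 66.2, 78.2 and 70.4 at 3 h and 85.6, 80.0 and 77.0 at 5 h, so that the 3 h libraries overlapped mock and the 5 h ones did not. Of the 37 other proteasome genes, 0 rose and 2 fell in GFP- cells at 3 h (against 2.31% and 2.11% of the genes tested). Late against early, 6 of these 37 rose and 0 fell in GFP- cells (against 6.03% and 6.08%). No test compared the lists with each other. Enzymes around the proteasome were members as well: uba1, the main ubiquitin-activating enzyme (ratios 2.02 at 3 h and 1.94 at 5 h), and UCHL3, a deubiquitinase (1.85 and 1.90). In GFP- cells late against early uba1 rose (0.28 ± 0.07, limma adjusted p = 0.0144), and UCHL3 changed by 0.08 ± 0.09 (adjusted p = 0.637).

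**Figure D4:**
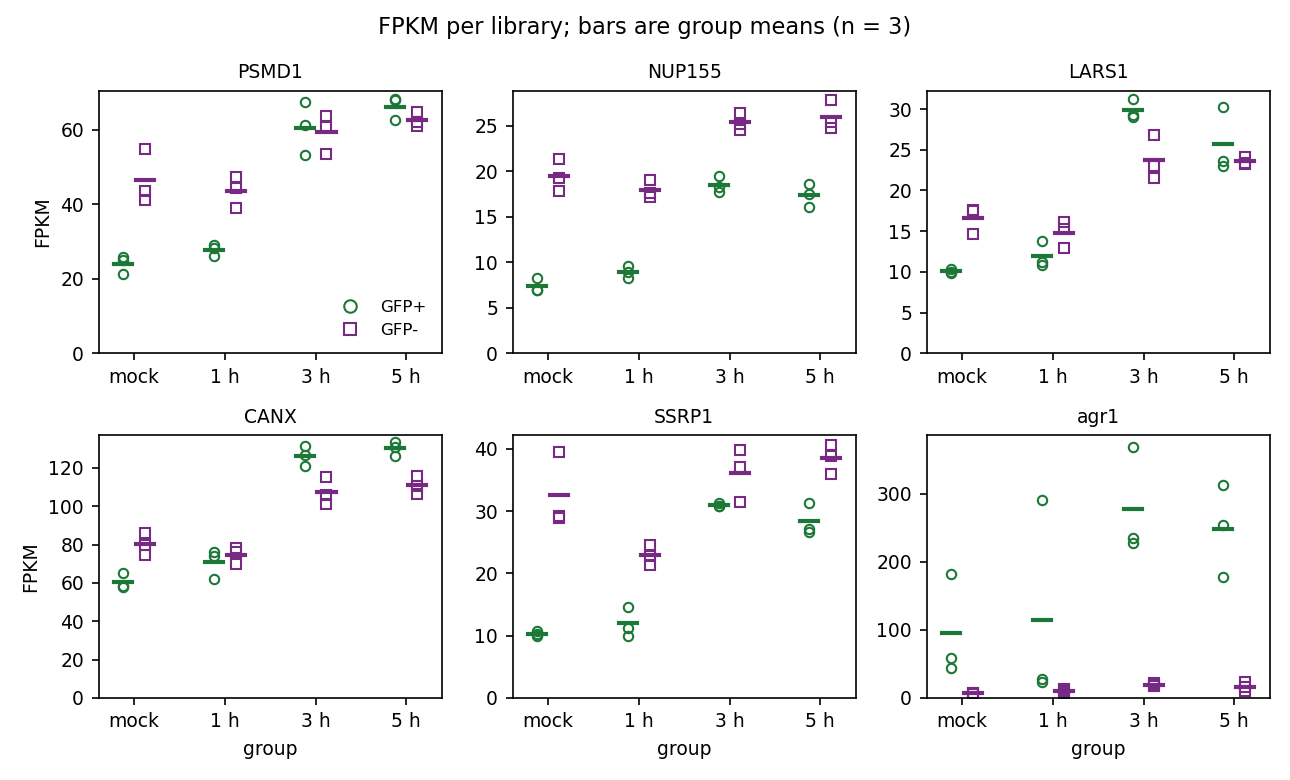
FPKM in every library of 6 members: PSMD1 (proteasome), NUP155 (nuclear pore), LARS1 (tRNA charging), CANX (endoplasmic reticulum), SSRP1 (chromatin) and agr1 (secretory epithelium). Circles are GFP+ and squares GFP- libraries, and bars are means of 3. In the first 5 genes the late GFP+ libraries are above all early ones, while in agr1 they overlap.

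Members that act on chromatin, for which no list was drawn up, ranged from high to low ratios. SSRP1, a subunit of the histone chaperone FACT, ranked 15 of the 248 members by its mean late ratio (2.83 at 3 h and 2.60 at 5 h). It was at 10.8, 9.87 and 10.3 FPKM in GFP+ mock, 10.0, 11.2 and 14.6 at 1 h, 30.8, 30.9 and 31.3 at 3 h and 26.7, 27.1 and 31.4 at 5 h. In GFP- cells it was at 29.2, 28.9 and 39.5 in mock, 24.6, 21.3 and 22.8 at 1 h and 40.7, 36.0 and 38.9 at 5 h, and it rose late against early by 0.44 ± 0.09 (limma adjusted p = 0.0041), where mock and late libraries overlap. The histone chaperones SET and ANP32B and the histone deacetylase HDAC1 were among the members with the highest GFP+ level, and their ratios were between 1.63 and 1.85 at both late times. SET was at 134, 147 and 131 FPKM in GFP+ mock and 203, 221 and 250 at 5 h. ANP32B rose in GFP- cells late against early (0.46 ± 0.07, adjusted p = 0.000367), and the changes of SET (0.14 ± 0.07) and HDAC1 (0.13 ± 0.08) did not pass the test.

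Of the S phase list, MCM4, a subunit of the replicative helicase, and POLD1, the catalytic subunit of DNA polymerase delta, were members, 2 of 41 tested. MCM4 was at 16.8, 23.7 and 18.9 FPKM in GFP+ mock, 17.1, 18.3 and 20.3 at 1 h, 43.7, 40.1 and 40.5 at 3 h and 37.9, 30.0 and 38.4 at 5 h, with no overlap between late and early. In GFP- cells MCM4 rose late against early by 0.43 ± 0.09 (limma adjusted p = 0.00557). Of the 39 other S phase genes, 27 fell and 1 rose in GFP+ cells at 1 h (19.1% and 13.9% of the genes tested). At 3 h 22 rose and 1 fell (19.9% and 8.15%), and at 5 h 28 rose and 0 fell (15.1% and 4.09%). By the rule's limits, 33 of the 39 had a 1 h ratio under 0.8, 1 had one over 1.25, and 35 missed the ratio of 1.6 at 3 h or 5 h. RB1, the retinoblastoma protein that restrains entry into S phase, was the single member of the cyclin and Cdk inhibitor list, at 5.34, 6.32 and 5.51 FPKM in GFP+ mock and 14.2, 15.1 and 13.8 at 3 h. None of the mitosis list were members.

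RNA processing supplied U2AF2, PRPF31, SF3A2 and SF3B2, components of the spliceosome, 4 members of 67 tested. Their ratios were 1.66 to 1.95 at 3 h and 1.63 to 1.81 at 5 h, with no overlap in any of the 4. In GFP- cells U2AF2 (0.48 ± 0.10, limma adjusted p = 0.00439) and PRPF31 (0.32 ± 0.07, adjusted p = 0.00591) rose late against early. Of the 63 other genes, 35 rose and 3 fell in GFP+ cells at 3 h (19.9% and 8.15% of the genes tested). At 5 h 38 rose and 3 fell (15.1% and 4.09%). In GFP- cells late against early 6 of the 63 rose and 4 fell, near the shares of all genes tested (6.03% and 6.08%). SYNCRIP, an RNA-binding protein on no list, was at 118, 133 and 136 FPKM in GFP+ mock and 245, 233 and 229 at 3 h.

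The ribosome biogenesis list gave 1 member of 46 tested, and members of this function outside the list were not counted. BOP1, which is needed to make the large ribosomal subunit, was at 7.29, 8.07 and 7.46 FPKM in GFP+ mock, 5.61, 6.32 and 8.64 at 1 h, 24.5, 23.4 and 23.8 at 3 h and 15.7, 15.4 and 23.6 at 5 h. It rose in GFP- cells late against early by 0.55 ± 0.10 (limma adjusted p = 0.00199). Of the 45 other genes of that list 39 rose and 1 fell in GFP+ cells at 1 h (13.9% and 19.1% of the genes tested). At 3 h 42 rose and 2 fell (19.9% and 8.15%), and at 5 h 30 rose and 2 fell (15.1% and 4.09%). By the rule's limits, 42 of the 45 had a 1 h ratio over 1.25, and 27 missed the ratio of 1.6 at 3 h or 5 h.

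**Figure D5:**
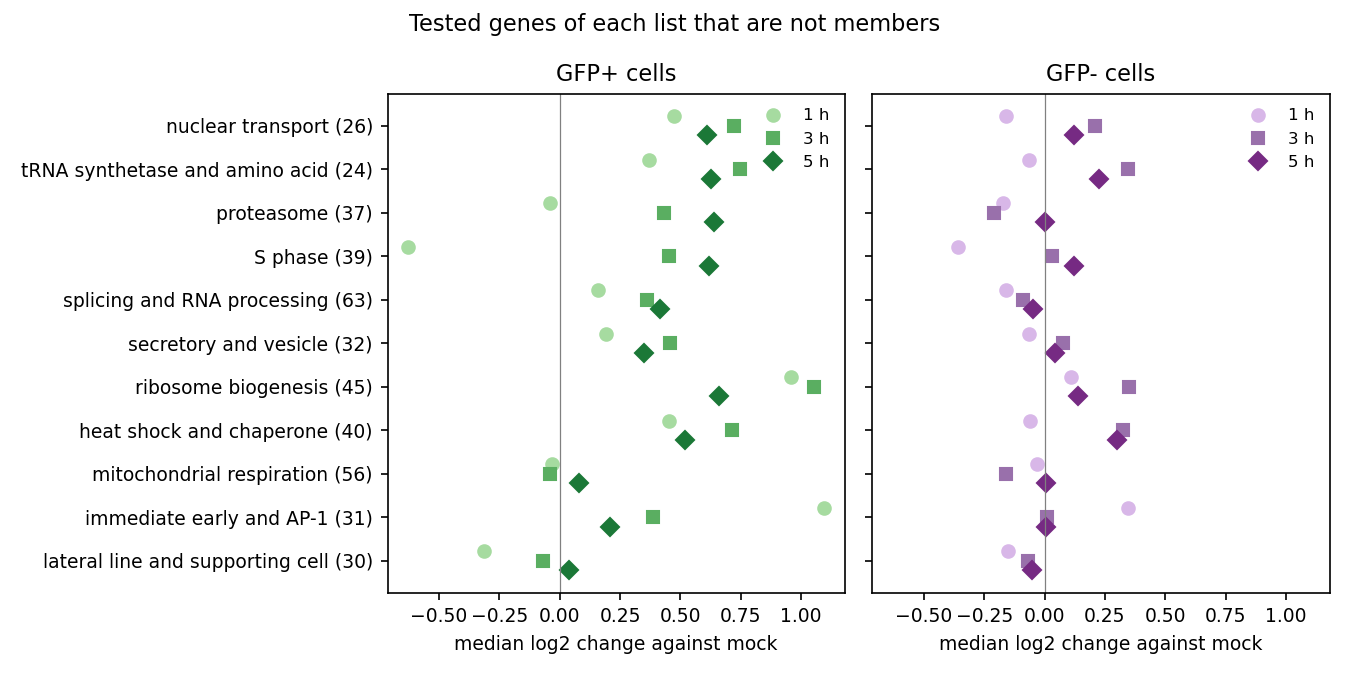
Median log2 change against mock at 1 h, 3 h and 5 h for the genes of 11 lists that are not members, in GFP+ cells (left) and GFP- cells (right). Numbers in brackets are genes. Leaving out the members, which rose late, lowers the late GFP+ medians, for the proteasome from 0.57 to 0.43 at 3 h. Members also had to be near mock at 1 h, so leaving them out shifts the 1 h GFP+ medians. The shift was from 0.24 to 0.47 for nuclear transport and from 0.04 to -0.04 for the proteasome. In GFP+ cells nuclear transport stands at 0.72 at 3 h and mitochondrial respiration near 0, and in GFP- cells the proteasome stands at -0.21 at 3 h.

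The endoplasmic reticulum and the secretory pathway were represented by CANX, the chaperone calnexin, by kdelr2a, a receptor that returns escaped proteins to the reticulum, and by COPB2 and COPG2, subunits of the COPI coat. CANX was at 65.0, 58.4 and 57.9 FPKM in GFP+ mock, 76.0, 62.0 and 73.9 at 1 h, 121, 127 and 131 at 3 h and 131, 126 and 133 at 5 h. In GFP- cells it was at 85.9, 74.7 and 79.8 in mock, 78.0, 70.1 and 76.2 at 1 h, 101, 115 and 106 at 3 h and 107, 110 and 116 at 5 h. Late and early libraries were separated in both populations, and the GFP- rise late against early was 0.49 ± 0.06 (limma adjusted p = 4.12e-05). kdelr2a rose in GFP- cells by 0.61 ± 0.08 (adjusted p = 0.000255), and COPB2 (0.33 ± 0.06, adjusted p = 0.00322) and COPG2 (0.25 ± 0.07, adjusted p = 0.021) rose by less. Of the 32 other secretory genes, 22 rose and 2 fell in GFP+ cells at 3 h (19.9% and 8.15% of the genes tested). At 5 h 20 rose and 0 fell (15.1% and 4.09%). Of the 36 other genes of the endoplasmic reticulum and unfolded protein list, 22 rose and 4 fell at 3 h, and 20 rose and 3 fell at 5 h.

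Enzymes of N-glycosylation and of hexosamine supply were members without being on a list. MOGS removes the first glucose from N-glycans, ALG3 adds mannose to their lipid-linked precursor, MLEC (malectin) binds glucosylated glycans in the reticulum, and GFPT1 is the rate-limiting enzyme of hexosamine synthesis. GFPT1 was at 24.0, 27.2 and 26.5 FPKM in GFP+ mock, 27.8, 28.5 and 26.9 at 1 h, 53.3, 52.9 and 49.99 at 3 h and 49.99, 61.4 and 52.5 at 5 h. It rose in GFP- cells at 3 h (0.56 ± 0.11, limma adjusted p = 0.00823) and at 5 h (0.48 ± 0.11, adjusted p = 0.0329). MLEC (0.66 ± 0.17, adjusted p = 0.0309) and ALG3 (0.65 ± 0.16, adjusted p = 0.0303) rose in GFP- cells at 3 h, and their 5 h changes of 0.28 ± 0.17 and 0.22 ± 0.16 did not pass the test. Neither gene differed between 3 h and 5 h by limma, so a fall after 3 h is not shown. MLEC rose in GFP- cells late against early by 0.54 ± 0.12 (limma adjusted p = 0.00561).

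The sterol and lipid list held 0 members of 23 tested genes, and the enzymes named here were found outside it. acot15, an acyl-CoA thioesterase, was among the members named for their small GFP- p. It was at 2.99, 2.29 and 2.03 FPKM in GFP- mock, 3.53, 3.53 and 2.60 at 1 h, 5.95, 5.95 and 5.21 at 3 h and 5.91, 5.18 and 5.77 at 5 h, a rise of 0.97 ± 0.12 at 3 h (limma adjusted p = 0.000663) and 0.95 ± 0.12 at 5 h (adjusted p = 0.000464). In GFP+ cells it went from 6.81, 6.21 and 7.80 in mock to 12.5, 14.0 and 14.8 at 5 h. LYPLA2, a thioesterase that removes palmitate from proteins, rose in GFP- cells at 3 h (0.33 ± 0.07, adjusted p = 0.0206) and at 5 h (0.43 ± 0.07, adjusted p = 0.00719). CYP51A1, a sterol demethylase that the list names by another symbol and so did not count, had GFP+ ratios of 1.71 at 3 h and 1.77 at 5 h and rose in GFP- cells late against early by 0.50 ± 0.14 (adjusted p = 0.0236).

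Chaperone and mitochondrial lists gave 2 members each. TCP1, a subunit of the cytosolic chaperonin, and STIP1, which links Hsp70 to Hsp90, were 2 of 42 tested (4.76%) on the heat shock and chaperone list, and PHB2, a prohibitin of the inner membrane, and MRPS5, a mitochondrial ribosomal protein, were 2 of 34 (5.88%) on the mitochondrial import and translation list. STIP1 was at 33.8, 29.6 and 27.4 FPKM in GFP+ mock, 37.6, 29.1 and 46.9 at 1 h, 88.7, 74.1 and 73.0 at 3 h and 64.5, 60.2 and 66.2 at 5 h. All 4 were separated between late and early in both populations (8.65% of the genes tested in GFP+ and 2.49% in GFP- cells). By limma all 4 rose in GFP- cells late against early (6.03% of the genes tested), by 0.33 to 0.48 on the log2 scale. None of the 56 tested genes of mitochondrial respiration were members.

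Members of signalling, adhesion and the cytoskeleton took several courses in GFP- cells. PTPRZ1, a receptor tyrosine phosphatase, was at 15.8, 24.8 and 27.3 FPKM in GFP+ mock, 21.5, 25.4 and 19.6 at 1 h, 60.8, 68.9 and 76.9 at 3 h and 47.7, 39.1 and 56.5 at 5 h. Its GFP- change late against early was -0.03 ± 0.14 (limma adjusted p = 0.924), with all 12 GFP- libraries between 40.5 and 70.4 FPKM. GDNF, a secreted neurotrophic factor, was the member that fell in GFP- cells late against early (-0.41 ± 0.09, adjusted p = 0.00567). In GFP- cells GDNF was at 5.99, 7.39 and 8.19 FPKM in mock, 7.35, 7.76 and 6.79 at 1 h, 4.36, 6.33 and 4.62 at 3 h and 4.95, 5.43 and 5.52 at 5 h, against 6.76, 8.51 and 7.28 in GFP+ mock and 14.5, 16.0 and 15.9 in GFP+ cells at 5 h. The 2 populations therefore lay in one range in mock and apart at 5 h.

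dlb, a Delta ligand of Notch, was the single member of 31 tested Notch genes. It was at 11.6, 18.9 and 23.6 FPKM in GFP+ mock, 10.1, 17.0 and 18.5 at 1 h, 26.5, 33.7 and 29.0 at 3 h and 42.3, 36.0 and 37.6 at 5 h, with no overlap between late and early. Its GFP- libraries lay between 41.6 and 60.6 FPKM, with a late change of -0.03 ± 0.15 (limma adjusted p = 0.934). ITGB6, an integrin subunit of epithelia, was at 19.9, 17.5 and 24.0 FPKM in GFP+ mock and 31.9, 35.3 and 32.9 at 5 h, and between 1.06 and 2.41 in GFP- cells. CTTN (cortactin), which supports branched actin, rose in GFP- cells late against early by 0.27 ± 0.08 (adjusted p = 0.0296). The actin regulators TWF1 (-0.13 ± 0.11) and ABRACL (-0.14 ± 0.12) did not pass the test there. KIF5B, a kinesin heavy chain, rose by 0.29 ± 0.06 (adjusted p = 0.00412), and MAPRE1, which tracks microtubule ends, overlapped between late and early GFP+ libraries and changed by 0.21 ± 0.15 in GFP- cells (adjusted p = 0.413).

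agr1 and some other members higher in GFP+ than in GFP- mock varied between libraries along with the exocrine pancreas genes in the early groups. agr1, a secretory protein of the anterior gradient family, was at 183, 58.4 and 43.6 FPKM in GFP+ mock, 291, 28.3 and 22.6 at 1 h, 228, 235 and 369 at 3 h and 313, 254 and 178 at 5 h. The library numbered 1 was high in mock and at 1 h, and at 1 h it exceeded 4 of the 6 late libraries. The agr1 ratio of means at 1 h was 1.20, while its mean log2 value changed by -0.42. agr1 was 13.8 times higher in GFP+ than in GFP- mock, one of 20 members with at least 4-fold more in GFP+ mock. Others of the 20 also stood highest in library 1 at 1 h. There si:ch211-125o16.4 was at 112, 8.93 and 17.0 FPKM and si:ch211-232i5.3 at 30.8, 1.13 and 9.74, so single libraries set these means. The median log2 change of the 20 at 1 h was -0.40, against 0.05 over all members. Of these 20, 4 (20%) were separated between late and early GFP+ libraries, against 75% of all members and 8.65% of the genes tested. In GFP- cells late against early 1 of the 20 (5%) passed the test as higher, against 6.03% of the genes tested. The median log2 change of the 20 in this contrast was 0.36, against 0.30 over all members and -0.01 over all genes tested. In 4 of the 20 all 6 late GFP- libraries were above all 6 early ones, against 2.49% of the genes tested. The low share of calls therefore does not show that the 20 stayed level in GFP- cells. In GFP+ mock 51 members were higher than in GFP- mock, and 191 were lower. The median ratio of GFP+ to GFP- mock was 0.58 over members and 0.73 over all genes tested, so the genes tested also leaned to GFP-.

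The exocrine pancreas supplied 13 members of 25 IDs, among them the proteases ctrl, prss59.1, prss59.2, ctrb.2 and ctrb.3, the carboxypeptidases CPA1 and CPB1, the amylase amy2al2 and a pair of CEL lipase genes. prss59.1 was at 140, 14.2 and 14.3 FPKM in GFP+ mock, 97.9, 40.1 and 31.0 at 1 h, 270, 42.6 and 59.7 at 3 h and 110, 157 and 21.0 at 5 h. ctrl was at 28.0, 3.09 and 4.65 in mock, 23.3, 10.8 and 8.27 at 1 h, 69.6, 14.0 and 21.8 at 3 h and 25.5, 59.1 and 6.48 at 5 h. Late and early GFP+ libraries overlapped in all 13, and single libraries set the means. Without the 3 h library numbered 1, the log2 ratio of 3 h to mock was -0.13 for prss59.1 and -0.29 for prss59.2. None of the 13 rose or fell by limma in any GFP- contrast. In GFP- cells the highest of the 12 libraries was at 1 h for 11 of the 13 and at 3 h for the other two. There ctrl was at 26.3, 31.8 and 71.0 FPKM in mock, 82.7, 121 and 106 at 1 h and 38.8, 54.4 and 21.4 at 5 h. Over the 20 exocrine IDs with at least 5 FPKM in every GFP- group, the median GFP+ level was 6.93% to 136% of the GFP- mean, depending on the library. PTF1A, a transcription factor of exocrine pancreas cells, had GFP+ group means between 0.191 and 0.548 FPKM and GFP- means between 6.29 and 11.2. Whether other GFP- cells express PTF1A was not tested. The part of pancreas RNA in these members was not tested further, and reads of near-identical copies such as prss59.1 and prss59.2 could be shared.

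The other 136 members with a symbol are on no list. The lists hold chosen symbols only, so genes of a listed process can be among these 136. Examples are EIF4G3, EIF4H and DENR for translation. Ratios of the 136 ran from 1.6 to 3.55 at 3 h (median 1.92) and from 1.6 to 3.71 at 5 h (median 1.78). In GFP- cells late against early 58 of the 136 rose, against 6.03% of the genes tested. Of the 52 members without a symbol, 32 were separated between late and early in GFP+ cells, against 75% of all members and 8.65% of the genes tested. In GFP- cells late against early 15 of the 52 (28.8%) rose, against 42.7% of all members and 6.03% of the genes tested. Among the 52 are 6 listed at 0 in all GFP+ mock and 1 h libraries, and these hold the 6 highest ratios. ENSDARG00000080953 was listed at 57.0, 49.4 and 0 FPKM at 3 h and 75.0, 43.9 and 0 at 5 h, and ENSDARG00000081875 at 143, 0 and 0 at 3 h and 0, 0 and 101 at 5 h. Each of the pair is at 0 in at least 2 late libraries, so their ratios rest on few libraries, and no fold is given for them.

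In GFP- cells 18 members reached a ratio of 1.6 at both 3 h and 5 h (7.26%), against 1.42% of the genes tested. The ratio in GFP+ cells exceeded that in GFP- cells in 239 members at 3 h and in 238 at 5 h, a comparison that the choice of the members in GFP+ cells favours and that carries no test. The 24 lists without any member were those of hair cells, lateral line and supporting cells, other cell types (7 lists), extracellular matrix, Fgf, Wnt, Bmp and Tgf-beta, Jak/Stat3, NF-kB and inflammation, interferon and antigen processing, immediate early and AP-1 genes, mitosis, translation factors, mitochondrial respiration, glycolysis and hypoxia, sterol and lipid, redox and Nrf2, and lysosome and autophagy.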

How the data were processed

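The authors deposited FPKM, with a column for each library and a row for each Ensembl gene. Per the submitters' processing notes, CASAVA 1.8.2, TopHat 1.4.1, Cufflinks 1.3 and the build danRer7 were used; no source used here gives the annotation release, strand setting or filters. Libraries were made from polyadenylated RNA, per the labels. The table held 31199 rows; 112 repeats of an ID were dropped. Depth per library is unknown; relative depth, read from values under 0.15 FPKM, ran from 0.727 to 1.27, and low genes are less precise.

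Values were tested as log2(FPKM + 1), without further scaling, with limma 3.58.1 in R 4.3.3: one mean per group over 24 libraries, moderated variances along an intensity trend, two-sided, Benjamini-Hochberg adjusted over 21860 genes (1 FPKM in at least 3 libraries). Fold changes on this scale understate low genes. The fit was tested on simulated data. GFP+ contrasts were used for list genes that are not members, a choice made after the data were seen, as were the exocrine pancreas list and PTF1A. The members and lists were chosen with earlier results of these data known. Named members are the 12 highest ratios, the 8 highest levels, up to 6 per list, up to 4 per GFP- contrast and direction, and those nearest the limits. The nucleoporins, proteasome and exocrine pancreas genes and a few others beyond these were named after their values were seen. Groups come from the labels. Alternatives were other pseudocounts, filters, scalings, models and left-out libraries. Figures were drawn with matplotlib 3.10.9. Values of some genes are not reported here.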

Additional observations from a re-analysis of the deposited data

How the results depend on the processing

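The 106 members that rose in GFP- cells late against early were 99 to 123 under the other pseudocount, filters, scalings and models, 114 with a replicate block and 86 to 119 with 1 library left out. The 1 member that fell was 2 in a fit of the GFP- libraries alone and 2 with the replicate block (1 with each library left out). The 31 rises at 3 h were 22 with the replicate block and 7 to 37 with 1 library left out, and the count of falls was 1 after quantile normalization and 0 to 1 with 1 library left out. The 12 rises at 5 h were 7 with a pseudocount of 0.1, 29 after quantile normalization, 5 in the fit of GFP- libraries alone, 4 with the replicate block and 4 to 16 with 1 library left out. At 1 h the count of rises was 1 with a pseudocount of 0.1 or quantile normalization (0 to 1 with 1 library left out), and the count of falls 8 after quantile normalization and 0 to 6 with 1 library left out. The cause of these shifts was not tested. The correlation of same-numbered libraries' deviations ran from -0.039 to 0.17, under 0.1 in most pairs, and the labels do not say that the numbers pair samples.

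The number of members was 116 after median-of-ratios scaling, 290 with a pseudocount of 0.1 (230 shared), 236 by group medians (150 shared) and 207 to 267 with 1 library left out. With 1 library left out, ABRACL's GFP- log2 change at 5 h (-0.13) ran from -0.26 to 0.059, above 0 without GFP- mock library 1. The GFP+ log2 ratios at 3 h ran from -0.13 (without 3 h library 1) to 3.03 (without mock library 1) for prss59.1 and from -0.29 to 2.85, by the same libraries, for prss59.2. Of 1240 values of named members in GFP- contrasts, 25 lost and 8 gained a call. Of 1278 GFP+ log2 ratios of named members under the alternatives, 206 were classed as moved in size. Another 2 changed sign, those of prss59.1 and prss59.2 at 3 h. The class does not measure how steady a ratio is. CPA1 at 3 h was classed as the same in all 9 alternatives while it ran from 0.52 to 2.65. SSRP1 at 3 h was classed as moved in 5, with values from 1.33 to 1.58. Unknown depth, 3 libraries per group and the shared date limit all results.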
